A study of Homo sapiens with 5 samples.

Results

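The 4 libraries compared here are RNA-seq libraries, made without immunoprecipitation, of MDA-MB-231, a triple-negative human breast cancer line of mesenchymal character, and they form 2 sets chosen by experiment. Set A holds the library labelled si-HNRNPC, from cells transfected to silence the nuclear RNA-binding protein HNRNPC, and RIP-INPUT, the lysate from which HNRNPC-bound RNA was later precipitated and whose label names no transfection. Set B holds si-LY6E-DT, from cells transfected with a Smart Silencer against the long noncoding RNA LY6E-DT, and si-LY6E-NC, its negative control. All cells were of the same line and the labels give the same serum-containing L15 medium for all. In the treatment text the targets and their siRNAs appear crossed, so the library labels are followed here. The sets take 4 of the 5 libraries of the series, and the fifth, the HNRNPC immunoprecipitate, is in neither set. Of 12497 gene rows, 10731 were listed in all 4 libraries and 10284 of these had a mean of at least 1 FPKM (fragments per kilobase of transcript, scaled to library size), the level required for the comparison.

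Each label group has 1 library, and the libraries of a set are different conditions, not replicates. A gene was therefore called higher in set A when both A libraries lay above both B libraries, and lower when both lay below, and it was called at least 2-fold apart when the nearest libraries of the sets differed by at least 1 on the log2(FPKM + 1) scale. These are rules of size, with no p-value or SD, because nothing here can be checked against replicates. The labels name no culture batch or sequencing run, so the difference between the sets cannot be told apart from any such batch. In bulk RNA, fewer cells of a type and less RNA per cell cannot be told apart either.

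Several facts about the libraries bear on what follows. HNRNPC (ENSG00000092199.17_4, chromosome 14) measured 48.8 FPKM under the si-HNRNPC label, between 40.1 in si-LY6E-DT and 52.2 in si-LY6E-NC, with 67.4 in RIP-INPUT, so its level goes against the label and lies within the range of the other libraries. LY6E (ENSG00000160932.10_4, chromosome 8), a membrane-anchored protein gene beside LY6E-DT, was at 4.24 and 1.69 FPKM in set A and at 20.9 and 12.8 FPKM in set B, which puts it at least 2-fold lower in set A. The FPKM of a library summed to between 195575 and 272563, and mitochondrially encoded mRNAs took 29.8% of that sum in RIP-INPUT against 7.20% to 9.92% in the other 3. The sequencing depth is unknown. The B tables list the same 11695 genes, while the A tables differ in 929 genes. Of 8 line markers, VIM, CD44, AXL, MSN, CAV1, S100A4 and ZEB1 were listed in all 4 libraries. The other marker, SPARC, was at 37.8 and 31.5 FPKM in set A and was not listed in set B. The listed markers, 8 in each A library and 7 in each B library, summed to 856 to 1075 FPKM. Of 12 luminal breast markers, between 5 and 8 were listed per library, summing to 77.4 and 78.0 FPKM in set A and 104.7 and 133.1 FPKM in set B, and of the 4 tested 3 were lower in set A (KRT8, KRT18 and XBP1). The luminal markers ESR1, PGR, TFF1 and AGR2 were not listed in any library. Of 7 hepatocyte markers, 6 were listed in RIP-INPUT with a sum of 94.2 FPKM, led by ALB, the serum albumin gene, at 48.4 FPKM. None was listed in the library labelled si-HNRNPC, and set B listed SERPINA1 alone, at 13.5 and 9.87 FPKM. The part of such RNA in the results was not tested.

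Cancer cells of this kind are known for a loosened epithelial state, an invasive program of matrix proteins and proteases, and inflammatory and growth factor signalling. Cholesterol synthesis is controlled as a unit by the SREBP transcription factors, which are activated when membrane sterol is low. The mitotic genes are likewise controlled as a unit, by cell-cycle factors that act through short elements near their start sites.

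Of the 10284 genes tested, 2943 (28.6%) were higher in set A and 3414 (33.2%) were lower, and at least 2-fold apart were 411 higher (4.0%) and 408 lower (3.97%). Over all genes the median difference, set A minus set B, was −0.05 on the log2(FPKM + 1) scale. The median absolute difference between the set means was 0.49, against 0.42 within set A and 0.20 within set B. The within-set values compare single libraries and not means, so the measures are unlike. Differences of at least 1 on that scale were found for 17.9% of genes between the set means, for 12.8% between the A libraries and for 2.32% between the B libraries. The A libraries thus differed from each other more than the B libraries did. Among the genes at least 2-fold apart, the median absolute difference within set A was 0.29 for the higher genes and 0.30 for the lower genes, which the rule itself favours, since it uses the nearest libraries of the sets. The balance of directions depended on scaling. A rescaling that left out the mitochondrial and ribosomal protein genes and the 20 most abundant ones shifted the all-gene median by −0.12, and 318 genes were then at least 2-fold higher and 591 at least 2-fold lower. With RIP-INPUT left out the same counts were 879 and 687, with the library labelled si-HNRNPC left out 781 and 1175, and with si-LY6E-NC left out 563 and 642. At the 2-fold threshold, MFSD13A (3.88 and 3.40 FPKM in set A, 1.10 and 1.20 in set B) was just inside and TRIB1 (5.42 and 6.47 against 2.01 and 2.21) just outside. On the lower side, MCM6 (19.1 and 18.2 against 49.2 and 39.3) was just inside and KIF15 (3.75 and 8.03 against 18.4 and 17.0) just outside.

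**Figure D1:**
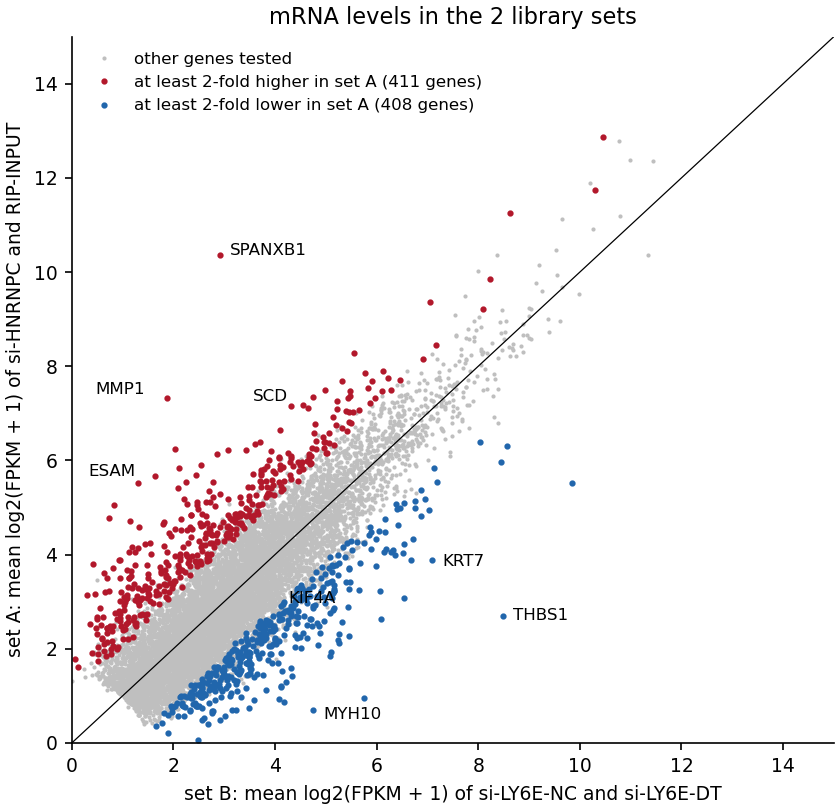
Mean log2(FPKM + 1) of the A libraries (vertical axis) against that of the B libraries (horizontal axis) for the 10284 genes tested. The line marks equal levels. The 411 genes at least 2-fold higher in set A are red and the 408 at least 2-fold lower are blue. SPANXB1 lies furthest above the line and THBS1 furthest below it.

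In what follows, paired values are in the order labelled si-HNRNPC and RIP-INPUT for set A, and si-LY6E-NC and si-LY6E-DT for set B. The gene furthest apart was SPANXB1 (ENSG00000227234.1_2; chromosome X, 141002591 to 141003706, plus strand, GRCh38), a cancer-testis gene normally expressed in sperm precursors. It was at 1094 and 1579.8 FPKM in set A and at 5.81 and 7.28 FPKM in set B, a difference of 7.45 on the log2 scale. SPANXB1 belongs to a family of near-identical copies, between which reads may be split, and the copies SPANXA1, SPANXA2 and SPANXC were listed in both A libraries at 3.03 FPKM or less and not in set B. MMP1 (chromosome 11, 102789920 to 102798160, minus strand, GRCh38), the collagenase that opens fibrillar collagen, was at 170.4 and 149.9 FPKM in set A and at 2.50 and 2.78 in set B. ESAM, a junctional adhesion molecule known from endothelium, was at 46.6 and 52.7 against 2.08 and 2.16. The endothelial marker KDR was at 0.632 and 0.989 FPKM in set A, and PECAM1, CDH5, VWF, TEK and CLDN5 were not listed. APBB1IP, an adaptor that links Rap1 to integrin activation, was at 55.4 and 57.3 against 3.41 and 3.24. In these 4 genes the libraries of a set were within 1.5-fold of each other.

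Others of the 12 genes furthest apart in this direction are known from stress and innate immune signalling. GDF15, a cytokine induced by cell stress, was at 36.1 and 28.9 FPKM against 0.257 and 1.54. EMP1, a membrane protein induced by growth factor signalling, was at 64.2 and 86.5 against 1.86 and 4.83. LY96, the co-receptor that lets TLR4 bind lipopolysaccharide, was at 26.7 and 19.5 against 1.41 and 1.63, and IL1B, the inflammatory cytokine interleukin 1 beta, was at 22.1 and 89.4 against 0.917 and 2.14. Among these 12 genes the A libraries differed most from each other in IL1B and in HMGN5, a nucleosome-binding protein gene (16.3 and 42.0 against 0.771 and 0.547). The difference of IL1B was 3.23 without RIP-INPUT and 5.20 without the library labelled si-HNRNPC, and that of HMGN5 was 3.38 and 4.70. LAPTM5, a lysosomal membrane protein of blood cells, was at 37.3 and 46.0 FPKM against 3.91 and 2.64. The remaining genes, SLC16A6, a monocarboxylate transporter family member, and ARG2, the mitochondrial arginase, were at 10.3 to 16.1 FPKM in set A and under 1 FPKM in set B.

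LAPTM5 and CD68, a lysosomal glycoprotein of macrophages (74.8 and 63.3 FPKM against 4.86 and 7.86), were among the 10 leukocyte markers examined. The summed level of that list was 112.1 and 111.7 FPKM in set A and 30.5 and 36.5 in the B libraries, where CD74, at 21.7 and 26.0 FPKM, made up most of it. PTPRC, CD3E, MS4A1 and TYROBP, which define leukocytes, were not listed in any library, and CD14 and LYZ were listed only in the RIP libraries, at 0.959 and 0.857 FPKM in RIP-INPUT.

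The genes furthest apart in the other direction included secreted and matrix proteins, cytoskeletal proteins and an enzyme. THBS1 (chromosome 15, 39581079 to 39599466, plus strand, GRCh38), the matricellular protein thrombospondin 1, was at 4.64 and 6.42 FPKM in set A and at 291 and 437 FPKM in set B, a difference of −5.79. ANGPTL4, a secreted inhibitor of lipoprotein lipase, was at 0.941 and 0.911 against 42.7 and 66.1. In both genes the lower B library stood more than 10 times above the higher A library. Fibronectin, FN1, was at 7.82 and 6.97 FPKM against 82.7 and 101. The collagen chains COL5A1 (2.56 and 2.61 against 37.4 and 28.96) and COL4A1 (3.54 and 4.11 against 37.5 and 49.3) were lower to a similar extent. MYH10, a nonmuscle myosin heavy chain, was at 0.738 and 0.502 FPKM against 26.6 and 25.1, and LIMCH1, an actomyosin regulator, was at 3.41 and 2.28 against 34.8 and 32.1. The keratins KRT7 (13.7 and 13.8 against 129 and 140.2) and KRT81 (0.578 and 1.28 against 13.3 and 19.0) were also lower, KRT81 being a hair keratin with close homologues. SCG5, a chaperone of the secretory pathway, was at 0.652 and 1.04 against 20.1 and 14.5. NNMT, which methylates nicotinamide, was at 2.85 and 8.86 against 58.7 and 77.3, and its difference was −4.15 without RIP-INPUT and −2.79 without the library labelled si-HNRNPC. In none of these genes did the sets overlap, as the rule that chose them requires.

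**Figure D2:**
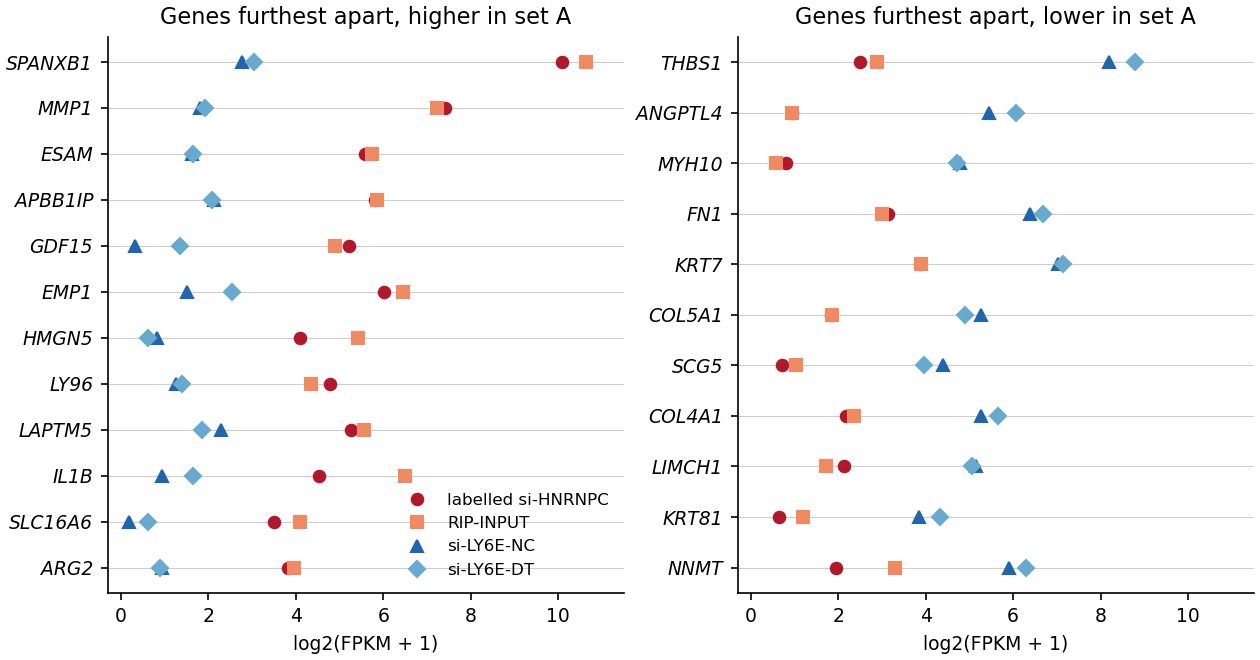
log2(FPKM + 1) in each of the 4 libraries for the genes furthest apart in each direction that are named in the text, with set A in red and orange and set B in blue shades. SPANXB1 lies above 10 in set A and near 3 in set B, while THBS1 lies near 3 in set A and above 8 in set B.

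Collagens and matrix glycoproteins were mostly lower in set A, and metalloproteases were divided. Of 11 collagens tested, 9 were lower and 1 higher, 7 of them at least 2-fold lower, with a median difference of −1.87 against −0.05 for all genes. COL12A1, a fibril-associated collagen, was at 5.26 and 1.86 FPKM against 27.8 and 27.7, and COL4A2, the partner of COL4A1 in basement membranes, was at 18.8 and 12.8 against 74.8 and 78.8. The exception was the transmembrane collagen COL13A1, at 35.5 and 46.9 against 30.5 and 31.5. Of 24 matrix glycoproteins and laminins, 13 were lower and 5 higher (median −0.49). Beside THBS1 and FN1, the heparan sulphate proteoglycans HSPG2 (1.94 and 2.09 against 16.2 and 21.9) and AGRN (10.6 and 6.13 against 33.4 and 35.3) were at least 2-fold lower. Of 14 metalloproteases and inhibitors, 6 were higher and 5 lower (median −0.02, and 0.21 when centred by length as described below). With MMP1, the sheddase ADAM8 (23.5 and 25.8 against 4.34 and 5.24) and the inhibitor TIMP3 (34.9 and 51.2 against 10.8 and 9.50) were at least 2-fold higher. ADAM9 (13.2 and 5.09 against 76.8 and 56.6), ADAMTS15 (2.68 and 2.78 against 13.8 and 14.3), ADAMTS6 and ADAM19 were at least 2-fold lower. Fibroblast markers were listed in set B and not in set A: 4 of 11 markers (COL1A1, PDGFRB, LUM and COL6A3) summed to 4.59 and 8.29 FPKM there, and their part in the matrix result was not tested.

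In the urokinase system, which activates plasmin at the cell surface, 4 of 14 genes were higher (28.6%) and 5 lower (35.7%). These are near the 28.6% and 33.2% of all genes. Tissue factor, F3, the start of the clotting cascade, was at 29.9 and 29.3 FPKM against 129 and 131. Thrombomodulin, THBD, which restrains clotting (9.28 and 16.4 against 2.11 and 2.58), and the protease inhibitor TFPI2 (32.6 and 28.8 against 8.99 and 10.5) were at least 2-fold higher in set A. PLAU, urokinase itself, was at 107 and 75.1 against 125 and 112. Among 14 integrins and adaptors 5 were higher (35.7%) and 6 lower (42.9%). ITGA3, the laminin receptor subunit, was at 37.0 and 25.3 against 96.3 and 119.8, and the talin gene TLN1 was at 35.6 and 30.4 against 77.5 and 88.4. ITGB2, the beta subunit of leukocyte integrins, was at 5.20 and 5.56 against 0.501 and 0.539.

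Both mesenchymal and epithelial genes were mostly lower in set A. Of 16 mesenchymal genes 11 were lower and 4 higher (median −0.70). SNAI2, a repressor of epithelial genes, was at 4.73 and 2.34 FPKM against 30.0 and 46.4. The actin-binding proteins CALD1 (6.54 and 6.67 against 32.4 and 21.99), TAGLN (3.15 and 1.76 against 11.4 and 16.05) and TPM1 (3.96 and 1.12 against 13.7 and 15.02) were also at least 2-fold lower. Vimentin, VIM, was higher instead, at 382 and 538 FPKM against 243 and 286, as was the repressor ZEB1 at 7.20 and 7.97 against 4.84 and 3.97. Of 19 keratin and junction genes 11 were lower and 1 higher (median −0.46). KRT19 was at 9.58 and 26.3 against 85.0 and 73.8, and the tight junction gene CLDN4 was at 1.303 and 2.30 against 13.4 and 9.95. Its relative CLDN7 was the gene that was higher, at 12.98 and 30.2 against 2.57 and 3.23. In the actin cytoskeleton list, 11 of 32 genes were higher (34.4%) and 13 lower (40.6%), against 28.6% and 33.2% of all genes. MYH9 (85.8 and 71.4 against 323 and 439) accompanied MYH10 at the low end. PFN2, a profilin that shares exons with another gene (45.8 and 44.8 against 4.32 and 3.22), the actin bundlers LCP1 (95.4 and 36.4 against 4.96 and 4.69) and FSCN1 (30.6 and 22.2 against 2.95 and 3.96) were at the high end.

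Several signalling lists were lower as well. Of 22 YAP/TAZ targets, genes driven by the Hippo pathway effectors, 14 were lower and 2 higher (median −0.75), with CRIM1 at 28.0 and 26.2 FPKM against 108 and 125, TGFB2 at 9.32 and 5.95 against 34.6 and 33.3, and NUAK2 at 0.716 and 0.727 against 3.28 and 6.09. The members that were higher were ANKRD1 (471 and 335 against 240.0 and 148) and FOXF2 (7.62 and 11.1 against 3.53 and 3.34). Of 30 NF-kB targets and chemokines 15 were lower and 3 higher (median −0.86). IL6 was at 2.83 and 5.43 against 25.1 and 54.9, the colony stimulating factor CSF2 at 19.2 and 8.11 against 66.7 and 57.8, and the acute-phase genes SAA1 (33.8 and 110.4 against 419.5 and 292) and SAA2, close copies of each other, were at least 2-fold lower. CSF3, the granulocyte colony stimulating factor, stood with IL1B on the other side, at 20.7 and 23.5 against 2.94 and 3.92. Of 15 EGFR ligands and receptors 11 were lower and 1 higher (median −0.64). The ligands TGFA (1.81 and 1.11 against 15.1 and 20.2) and AREG (1.11 and 1.56 against 12.5 and 21.5) were at least 2-fold lower, AREG together with its duplicate entry AREGB, and the receptor EGFR was at 11.3 and 13.1 against 25.0 and 31.8.

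Genes of the ERK feedback list, which growth factor signalling induces and some of which restrain it, were mostly higher. Of 19 tested, 12 were higher and 2 lower, 7 of them at least 2-fold higher (median 1.19). The phosphatase genes DUSP4 (66.2 and 81.2 FPKM against 6.56 and 8.28) and DUSP5 (71.0 and 91.0 against 9.17 and 13.7) led the list after EMP1, followed by PHLDA2 at 312 and 104 against 27.5 and 34.1. Without RIP-INPUT the median of the list was 0.53. It was 0.79 with no filter on low values, and also 0.79 with a mean of at least 5 FPKM required. Of 31 interferon-stimulated genes listed in any library, 21 were listed in all 4 and 19 were tested. Of those 19 genes 8 were higher and 3 lower (median 0.33, and −0.02 without genes that share exons). Genes that a library does not list, such as BST2 described below, are outside these counts. IFITM2 (35.9 and 71.2 against 3.79 and 5.24) and IFITM3 (194 and 278 against 60.7 and 47.0), antiviral membrane proteins of closely similar sequence, were at least 2-fold higher, whereas the guanylate-binding protein GBP3 (2.08 and 1.40 against 14.3 and 11.1) was at least 2-fold lower. Of 25 hypoxia genes 12 were lower (48%) and 6 higher (24%), against 33.2% and 28.6% of all genes (median −0.34). SLC2A1 was at 32.7 and 28.3 against 82.6 and 83.6, and STC1 at 57.8 and 119 against 11.9 and 12.2.

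Genes of cholesterol synthesis and uptake were mostly higher in set A. Of 26 genes tested 21 were higher in set A and none was lower, 11 of them at least 2-fold higher, with a median difference of 1.29. The share higher was 80.8%, against 28.6% of all genes. ERG28, a scaffold of the sterol-processing enzymes, was at 21.5 and 24.7 FPKM against 4.05 and 3.97. INSIG1, the sterol sensor that holds SREBP in the endoplasmic reticulum and is itself an SREBP target, was at 47.97 and 57.5 against 9.73 and 15.1. FDFT1, squalene synthase, was at 24.2 and 18.2 against 5.57 and 4.85. The sets overlapped in 5 genes, among them CYP51A1, SC5D, EBP and LSS. With quantile normalization, as with rescaling, 21 genes were higher and 1 lower. The fatty acid genes did not share this direction as a list, with 3 of 14 higher (21.4%) and 4 lower (28.6%). Over all genes 28.6% were higher and 33.2% lower. The desaturase SCD was at 126 and 162 against 26.8 and 18.7, and FADS1 and FADS2 were at least 2-fold higher too, while FASN, fatty acid synthase, was at 29.5 and 19.5 against 32.8 and 33.4.

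Mitotic genes lay the other way. Of 40 genes of G2 phase and mitosis 25 were lower in set A and 2 higher, 9 of them at least 2-fold lower, with a median difference of −0.73. KIF4A, a chromokinesin, was at 8.23 and 8.66 FPKM against 51.8 and 47.0. HMMR, a spindle protein, was at 0.765 and 1.43 against 6.88 and 8.69, the midzone kinesin KIF23 at 9.26 and 6.44 against 37.9 and 28.9, and the kinetochore protein CENPF at 9.61 and 24.7 against 71.1 and 68.3. The core regulators were less separated, with overlapping sets for CCNB1 (84.6 and 105 against 122 and 87.0), CDK1 (29.2 and 55.4 against 43.6 and 32.1) and AURKA (59.9 and 60.9 against 69.7 and 53.7). CKS2 and NUSAP1 were the members that were higher. Of 36 S phase genes, 11 were higher (30.6%) and 13 lower (36.1%), near the 28.6% and 33.2% of all genes (median −0.11). RRM2, a ribonucleotide reductase subunit, was at 6.14 and 4.44 against 25.9 and 23.8, POLA1, the primase-associated polymerase, was at 2.41 and 4.31 against 15.3 and 13.9, and GINS3, of the replicative helicase, was at 16.2 and 8.402 against 2.21 and 2.99. Among 20 cell cycle inhibitors and p53 targets, 10 were higher (50%) and 4 lower (20%), against the same shares of all genes (median 0.32). Beside GDF15, BAX was at 69.1 and 65.7 against 24.9 and 25.4, and GADD45A was at 9.21 and 24.0 against 55.2 and 120.3.

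The promoters below are shown because each list is known to be controlled as a unit and the lists lay on opposite sides. RefSeq promoters (build GRCh38.p14, 250 bases before to 50 after the start) were matched for 8591 of the 10284 genes. TTTGAA, the core of the cell-cycle element of late cell-cycle genes, was searched on both strands and was present in 25 of 35 matched mitotic promoters (71.4%), including all 9 of the genes at least 2-fold lower, against 1 of 19 cholesterol promoters (5.26%), 9.30% of the promoters of genes tested and 15.2% of all promoters of this length. CCAAT, the NF-Y box, was present on either strand in 16 of 19 matched cholesterol promoters (84.2%) and in 26 of 35 mitotic ones (74.3%), against 37.7% of genes tested and 34.6% of all promoters. No match of one overlaps a match of the other in the promoters printed here. A match is a description of the sequence and not a site. TTTGAA is known from late cell-cycle genes, so its share in a mitotic list tells nothing of the difference between the sets. Of the 25 mitotic promoters that hold it, 9 are of genes at least 2-fold lower, so it was not particular to those genes. The promoters of KIF4A and HMMR, the mitotic genes furthest apart that hold TTTGAA, are printed from 5′ to 3′ on the gene's strand with that motif in capitals.
KIF4A, chrX:70289854-70290153, plus strand: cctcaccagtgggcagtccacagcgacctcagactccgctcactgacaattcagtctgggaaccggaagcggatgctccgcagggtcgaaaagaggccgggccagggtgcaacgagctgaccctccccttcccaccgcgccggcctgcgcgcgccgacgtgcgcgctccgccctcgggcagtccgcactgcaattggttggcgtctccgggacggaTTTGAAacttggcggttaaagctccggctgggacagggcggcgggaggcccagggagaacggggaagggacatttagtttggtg
HMMR, chr5:163460382-163460681, plus strand: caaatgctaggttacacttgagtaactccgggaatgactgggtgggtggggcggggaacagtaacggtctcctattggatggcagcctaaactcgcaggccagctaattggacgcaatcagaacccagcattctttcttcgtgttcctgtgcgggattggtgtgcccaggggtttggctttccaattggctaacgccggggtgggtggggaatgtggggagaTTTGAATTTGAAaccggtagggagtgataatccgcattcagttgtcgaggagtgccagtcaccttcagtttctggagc
HMMR holds the motif in tandem, starting 28 and 22 bases before the start site, and KIF4A holds it 34 bases before. The promoters of ERG28 and INSIG1, which are at least 2-fold higher and hold CCAAT, have that motif (ATTGG on the other strand) in capitals.
ERG28, chr14:75660827-75661126, minus strand: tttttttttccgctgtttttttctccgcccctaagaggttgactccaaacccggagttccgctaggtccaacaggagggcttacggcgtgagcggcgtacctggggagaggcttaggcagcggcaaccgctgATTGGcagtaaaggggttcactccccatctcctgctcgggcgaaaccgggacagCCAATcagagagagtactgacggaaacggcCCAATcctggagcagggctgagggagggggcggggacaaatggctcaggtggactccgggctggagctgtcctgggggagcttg
INSIG1, chr7:155297628-155297927, plus strand: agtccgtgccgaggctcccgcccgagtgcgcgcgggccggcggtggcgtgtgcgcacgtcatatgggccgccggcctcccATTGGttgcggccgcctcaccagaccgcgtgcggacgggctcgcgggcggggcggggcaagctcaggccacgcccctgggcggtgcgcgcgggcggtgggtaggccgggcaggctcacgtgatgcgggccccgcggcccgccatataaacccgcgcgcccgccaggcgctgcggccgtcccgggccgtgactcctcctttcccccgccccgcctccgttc
ERG28 holds 3 matches and INSIG1 holds 1, and both genes were at least 2-fold higher in set A. KIF4A and HMMR were at least 2-fold lower, and their printed promoters also hold ATTGG, left there in lower case. CCAAT was thus not particular to the genes that were higher.

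**Figure D3:**
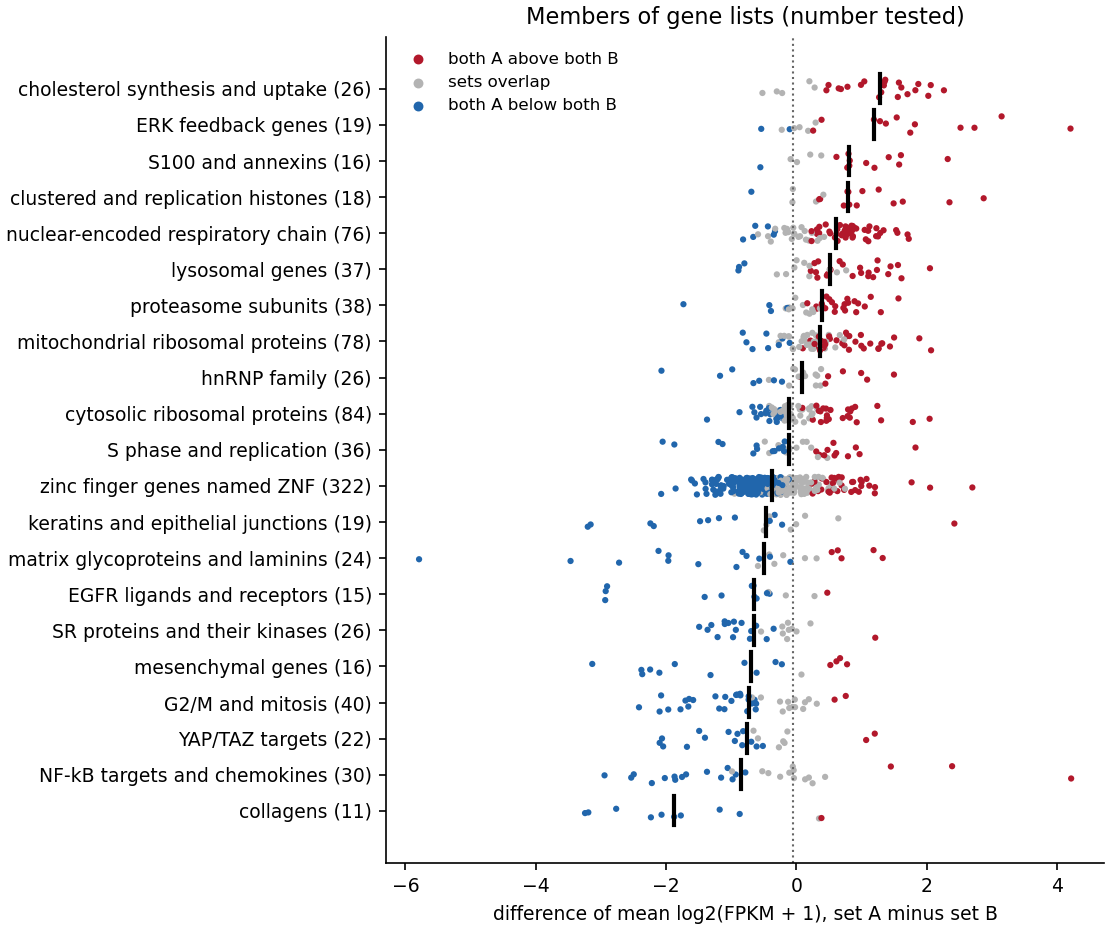
Difference of mean log2(FPKM + 1), set A minus set B, for each tested member of 21 of the 49 gene lists, picked with their values known to show both directions, with the number of members in parentheses. Red points have both A libraries above both B libraries, blue points both below, and grey points overlap. Black bars are list medians and the dotted line is the median of all genes (−0.05). Of the 21 lists drawn, cholesterol synthesis has the highest median (1.29) and the collagens the lowest (−1.87).

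Respiratory chain, mitochondrial ribosomal and proteasome genes were more often higher than lower. Of 76 nuclear-encoded respiratory chain subunits 48 were higher and 6 lower (median 0.61). ATP5G1, of the ATP synthase ring, was at 50.5 and 41.7 FPKM against 13.5 and 12.9, and COX7C, of cytochrome oxidase, was at 95.8 and 83.1 against 34.4 and 25.8. Of 78 genes taken by symbol as mitochondrial ribosomal proteins 36 were higher and 8 lower (median 0.36). The symbol does not show that each product is part of that ribosome. MRPS36 was at 21.6 and 25.4 against 4.49 and 5.18. Of 38 proteasome subunits 23 were higher and 4 lower (median 0.40). PSMB6, a catalytic subunit, was at 150.01 and 111 against 42.4 and 43.3, whereas PSMB9, its interferon-induced replacement, was at 1.23 and 3.75 against 10.7 and 9.06. Of 84 cytosolic ribosomal proteins 25 were higher and 22 lower (median −0.11), a balance that turned with scaling: 27 higher and 15 lower when median centred, 22 and 31 with rescaling, 18 and 41 with quantile normalization (median −0.34) and 16 and 42 when centred by length (median −0.37). Among them were RPL29, at 172 and 135 against 28.6 and 45.6, and RPS27A, at 113 and 130.1 against 397 and 249. Of 13 mitochondrially encoded mRNAs 10 were higher and none was lower (median 1.69). MT-CYB, of complex III, was highest in RIP-INPUT at 6083 FPKM, with 980.3 under the si-HNRNPC label and 333 and 462 in set B. The median of that list was 0.65 without RIP-INPUT, 2.46 without the library labelled si-HNRNPC, and 0.77 with quantile normalization, in which 3 members were lower.

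Lysosomal and calcium-binding proteins were also more often higher. Of 37 lysosomal genes 24 were higher and 3 lower (median 0.52), with the iduronate sulphatase IDS at 15.1 and 18.5 FPKM against 5.12 and 4.50 and the cathepsins CTSL (106 and 108 against 42.3 and 30.0) and CTSB (56.0 and 55.6 against 7.12 and 22.1). Of 16 S100 and annexin genes 11 were higher and 1 lower (median 0.81). S100A11 was at 614 and 709 against 88.0 and 195, S100A6 at 888 and 953 against 284 and 321, and S100A3 at 17.1 and 17.8 against 4.64 and 5.76. Of 6 genes tested in the metallothionein list 4 were higher, all of them metallothioneins, and 2 lower, the zinc transporter SLC30A1 and the regulator MTF1. The metal-binding metallothioneins MT1X (70.6 and 140.3 against 15.4 and 17.0) and MT1A (9.42 and 28.6 against 1.34 and 1.63), which belong to a cluster of closely similar genes, were at least 2-fold higher. All 5 tested members of the cancer-testis list were higher: beside SPANXB1 these were MAGED1 (15.6 and 24.7 against 3.60 and 4.59), MAGED2, XAGE1A and XAGE1B. That list has 40 symbols, of which 9 were listed in any library, and its name does not describe each member. AKR1C3, a steroid-converting reductase, led the 24 oxidative stress targets at 12.5 and 19.7 against 1.22 and 1.13. Of these targets 10 were higher (41.7%) and 6 lower (25%), against 28.6% and 33.2% of all genes (median 0.22). Of 18 replication histones, short genes with close copies, 13 were higher and 1 lower (median 0.79 and, with a mean of at least 5 FPKM required, 1.49), with HIST1H2BK at 276 and 151 FPKM against 43.0 and 35.7.

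Of the genes named above, AREGB, CLDN7, CYP51A1, FADS2, IDS, IFITM2, NUSAP1, PFN2, RRM2 and SAA2 share exons with another gene, so their levels are uncertain.

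SR proteins and zinc finger genes were more often lower than higher, and the hnRNP family lay near the shares of all genes. Of 26 SR proteins and their kinases 16 were lower and 1, SRSF8, was higher (median −0.65). SON, a speckle scaffold, was at 9.85 and 6.97 FPKM against 21.6 and 24.3 and was the member at least 2-fold lower. Of 322 genes named ZNF 178 were lower and 36 higher, which is 11.2% higher against 28.6% of all genes (median −0.38). The hnRNP family, to which HNRNPC belongs, had 7 of 26 higher and 7 lower, 26.9% each, against 28.6% and 33.2% of all genes. None was at least 2-fold apart, and the list median was 0.08 (−0.06 with rescaling and −0.11 with quantile normalization).

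The difference between the sets followed transcript length. Across 10213 genes with a GENCODE 29 transcript, which are not independent, Spearman's rho between the difference and transcript length was −0.35, against 0.04 for the difference within set A and 0.003 within set B. The points share the libraries and the length by which FPKM is divided. In the shortest of 10 equal groups of genes, with a median transcript of 1079 bases, 50.5% were higher in set A and 13.4% lower, and in the longest, with a median of 9056 bases, 13.7% were higher and 57.9% lower. The median transcript was 2085 bases for the genes at least 2-fold higher and 5192 for those at least 2-fold lower. It was also short for the respiratory chain (1257 bases) and histone lists (423) and long for the collagens (6494). The part of length in these lists was not tested. Values were also computed with the log2 levels of each library centred within 20 bins of length, a step added once the values were known, which also takes out any difference shared by genes of like length. The median then stood at 0.24 for the respiratory chain, with 29 higher and 15 lower, at 0.03 for mitochondrial ribosomal proteins, with 18 higher and 18 lower, at 0.18 for the proteasome and at 0.24 for histones, with 7 higher and 4 lower. It stood at 1.01 for cholesterol synthesis, −0.73 for mitosis, −1.68 for the collagens, 1.12 for ERK feedback, −0.68 for NF-kB targets and 0.51 for lysosomal genes. Mitotic genes at least 2-fold lower numbered 4, against 9 before. The median was −0.29 for EGFR ligands and receptors and 0.12 for the metallothionein list. No S100 or annexin gene was then at least 2-fold higher, against 3 before. The GC content of transcripts had a rho of 0.13 with the difference between sets, 0.28 with that within set A and −0.38 with that within set B.

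**Figure D4:**
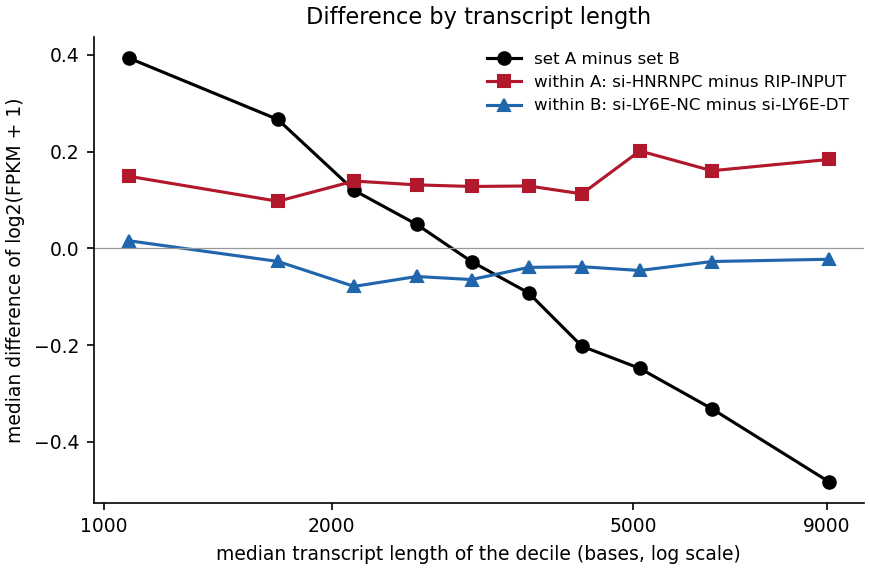
Median difference of log2(FPKM + 1) (vertical axis) in 10 equal groups of genes by transcript length (horizontal axis, bases, log scale). The difference between set A and set B goes from 0.39 in the shortest group to −0.48 in the longest, while the differences within set A (0.10 to 0.20) and within set B (−0.08 to 0.02) show no such slope.

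Neighbouring genes tended to differ in the same direction. The tested genes of chromosomes 1 to 22 and X were divided, in an order and size chosen after the data were seen, into 257 blocks of about 40 consecutive genes (positions from GENCODE 29, GRCh38). The median difference between the sets ranged over blocks from −0.79 to 1.07, within set A from −0.32 to 0.69 and within set B from −0.28 to 0.23. It was at least 0.5 in size in 25 blocks between the sets, in 11 within set A and in 0 within set B. Centred within length bins, it was at least 0.5 in size in 15 blocks between the sets. The highest block was chr16:53055033-66566251, from CHD9 to CKLF, in which 33 of 40 genes (82.5%) were higher in set A, 13 of them at least 2-fold, and 2 were lower. Its median was 1.07, against 0.29 within set A and −0.09 within set B. Among its genes, chosen after their values were seen, DOK4, a docking protein of tyrosine kinases, was at 14.3 and 10.1 FPKM against 0.639 and 0.861, POLR2C, a subunit of RNA polymerase II, at 59.1 and 44.5 against 10.1 and 11.7, CFAP20, a ciliary protein, at 62.9 and 40.8 against 12.7 and 11.8, and GOT2, the mitochondrial aspartate aminotransferase, at 88.6 and 64.5 against 25.6 and 25.7. The metallothionein cluster (MT2A, MT1E, MT1X and MT1A, all 4 higher) and the replication gene GINS3 named above lie in it. Centred within length bins, its median was 1.16.

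Longer stretches kept 1 sign. On chromosome 1, 13 consecutive blocks from EXOSC10 to CHD1L had medians between −0.72 and −0.03, with 269 of 520 genes lower and 83 higher, and the next 7 blocks, from BCL9 to RBBP5, had medians between 0.03 and 0.50, with 125 of 280 genes higher and 61 lower. On chromosome 3, 7 blocks from TRNT1 to ARL6IP5 lay between −0.42 and −0.07 and the following 5, from MITF to IQCJ-SCHIP1, between 0.006 and 0.58. All 12 blocks of chromosome 7 lay between −0.68 and −0.19, with 245 of 469 genes lower and 60 higher. The first 2 blocks of chromosome 10 had medians of 0.53 and 0.76 and the other 8 lay between −0.10 and 0.09. Chromosome 18 had the largest share of genes at least 2-fold lower among the chromosomes tested, 12.9% of 132, against 3.97% of all genes. Chromosome 21 was close to it, with 12% of 100. The lowest block was chrX:18892300-47215128, from PHKA2 to UBA1, with 30 of 42 genes lower and 3 higher. Centred within length bins, the stretches on chromosomes 1, 3 and 7 kept their signs, with medians from −0.56 to −0.02, 0.001 to 0.44, −0.35 to −0.17, 0.04 to 0.67 and −0.48 to −0.23 in the order given. Others did not. The 12 blocks of chromosome 5, between −0.54 and −0.02 before, then lay between −0.40 and 0.13. The 11 blocks of chromosome 9, between −0.52 and −0.003 before, lay between −0.49 and 0.04. Further stretches that no longer kept 1 sign were on chromosomes 2 (KDM3A to D2HGDH), 8, 11, 17 and 20. Stretches of 1 sign were also found within the sets, so they are not particular to the difference between sets. Without centring, the 9 blocks from MED1 to METRNL on chromosome 17 had medians between 0.10 and 0.48 within set A. Within set B the same blocks lay between −0.16 and −0.04.

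**Figure D5:**
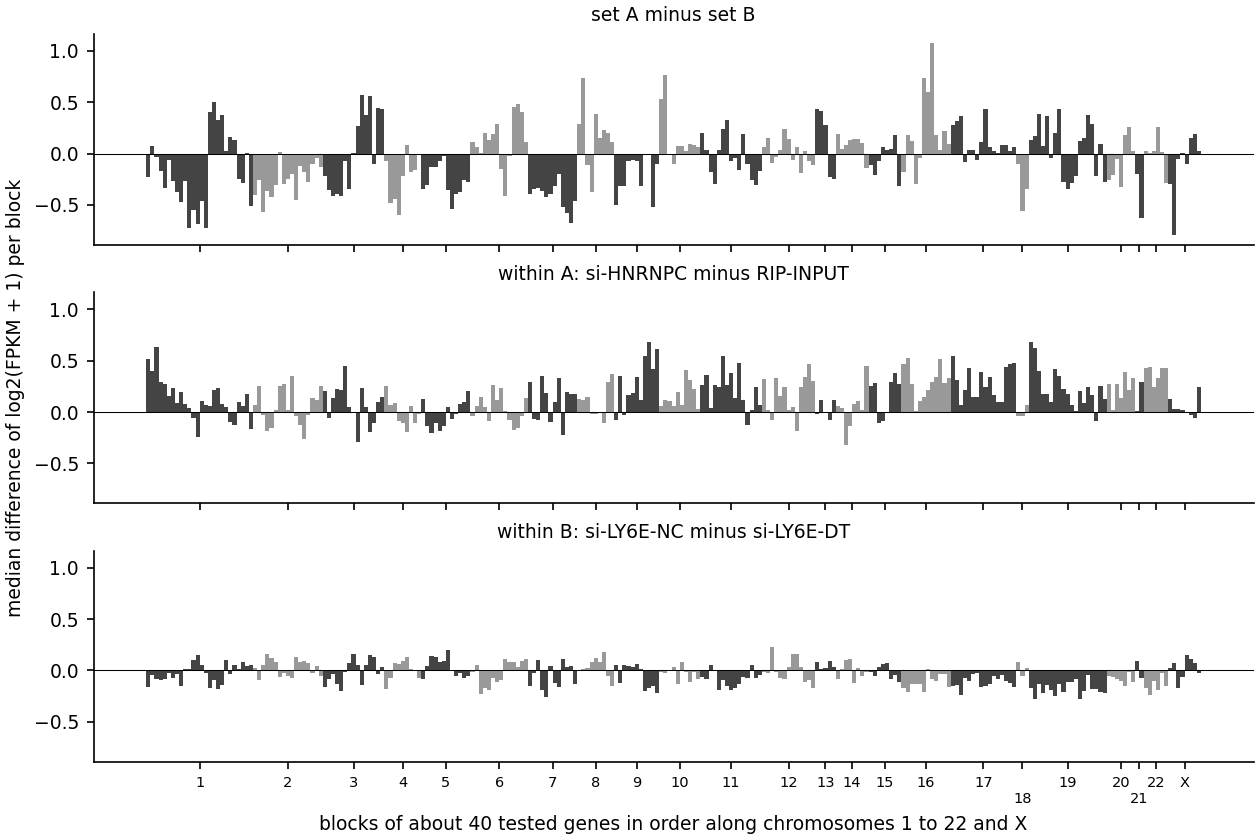
Median difference of log2(FPKM + 1) in 257 blocks of about 40 tested genes, in order along chromosomes 1 to 22 and X (alternating shades), for set A minus set B (top), within set A (middle) and within set B (bottom). Between the sets the medians run from −0.79 to 1.07 and form stretches of 1 sign, as they also do in places within the sets. Within set B they stay between −0.28 and 0.23.

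The immunoprecipitate, which is in neither set but comes from the same lysate as RIP-INPUT, lay on the side of set A at shares near those of all genes. Of the 411 genes at least 2-fold higher, 149 (36.3%) lay on the set A side of the midpoint between the set means, against 35.9% of all genes with a higher mean in set A. Of the 408 genes at least 2-fold lower, 269 (65.9%) lay on the set A side, against 60.5% of all genes with a lower mean in set A. SPANXB1 was at 62.5 FPKM in the immunoprecipitate, between the sets, MMP1 was at 83.5 and THBS1 at 23.4.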

How the data were processed

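RNA-seq gave gene levels for 5 MDA-MB-231 libraries, each its own group, and 4 of them were compared. The authors deposited FPKM per gene, 1 table per library, per the file headers. The submitters' processing notes list HISAT2 2.1.0 and StringTie 1.3.3 beside cutadapt 1.17 and FastQC 0.11.7, and the build GRCh37, with no roles or settings. FPKM divides by length and library total, so abundant genes move all others. No read counts are given, so the depth is unknown and no interval is possible. Values were taken as log2(FPKM + 1) for genes listed in all 4 libraries with a mean of at least 1 FPKM. The set difference is the mean of set A minus the mean of set B. Genes named are HNRNPC, LY6E, the 12 furthest apart in each direction at a mean of at least 5 FPKM that share no exon with another coding gene, up to 4 members per list at least 2-fold apart, and members needed to show a list's range; for DOK4, POLR2C, CFAP20 and GOT2 and the genes of the sequence blocks the values were seen first. Some genes that the rule names are not reported here. The 49 gene lists, the sets and the members were chosen with earlier results of these data known, so no pattern here is independent support. GENCODE 29 (GRCh38) gave positions, lengths and GC content. The scripts, tested on simulated data, ran under pandas 2.3.3 and numpy 2.4.6 in Python 3.11.15, with figures by matplotlib 3.10.9. Alternatives were pseudocounts, filters, scalings, leaving out exon-sharing genes or each library, and, added later, centring by length.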

Additional observations from a re-analysis of the deposited data

How the results depend on the processing

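The 4 counts were 2943 genes higher in set A, 3414 lower, 411 at least 2-fold higher and 408 at least 2-fold lower. With no replicate spread to measure against, a shift of over 1.5 times in a count, or of that fold in a log2 value, is treated as a move. With a pseudocount of 0.1, 657 genes were at least 2-fold lower, and with a pseudocount of 5, 198 were at least 2-fold higher and 123 at least 2-fold lower. With a mean of at least 5 FPKM required, 1898 were lower. Leaving out each library in turn gave 3500 to 4578 genes higher, 3988 to 5147 lower, 563 to 879 at least 2-fold higher and 561 to 1175 at least 2-fold lower, since a rule with 3 libraries is easier to meet. Those outside 1.5 times were without RIP-INPUT (4578 higher, 879 and 687 at least 2-fold apart), without the library labelled si-HNRNPC (5147 lower, 781 and 1175) and without si-LY6E-NC (642 at least 2-fold lower). Median centring, quantile normalization, rescaling, leaving out exon-sharing genes and centring by length kept all 4 counts within 1.5 times. None of the 24 genes furthest apart, the highest and lowest block medians or the medians of at least 0.5 in size among the 44 lists with at least 5 tested genes changed sign under the alternatives run. Shorter lists were not run. Smaller list medians did, such as integrins without RIP-INPUT and interferon-stimulated genes without those sharing exons. Of the differences of the 24 genes furthest apart under 13 alternatives, 36 moved, 30 of them with another pseudocount, and 9 list medians moved. The causes were not tested. No paired analysis was possible because each group has 1 library and the labels give no replicate numbers. The unknown depth limits low genes most.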

Other observations

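Some strongly expressed genes stayed out of the comparison because a table does not list them, which is not a level of 0. In set B, BST2, the antiviral protein tetherin, was at 73.2 and 73.0 FPKM and was listed in set A only in RIP-INPUT, at 3.61. CA9, a hypoxia-induced carbonic anhydrase, was at 51.8 and 54.4 against 1.49 in RIP-INPUT, and PMEPA1, a feedback inhibitor of TGF-beta signalling, at 36.3 and 49.7 against 0.715. The class II antigen presentation genes CD74 (21.7 and 26.0 against 0.602) and HLA-DRA (12.4 and 11.6 against 1.07) and the matrix gene EFEMP1 (27.8 and 34.3 against 1.68) had the same listing. The collagen COL7A1 was at 23.1 and 29.4 FPKM in set B and at 0.517 in the library labelled si-HNRNPC. In these 7 genes every listed A value was below both B values, whereas FP15737, also not listed for the si-HNRNPC label, was at 31.2 FPKM in RIP-INPUT against 14.3 and 14.4 in set B. TNFSF10, the death ligand TRAIL, at 12.7 and 12.5 FPKM, was listed in the B libraries only.

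Listed in the A libraries and not in the B libraries were 335 genes, 5 of them at 10 FPKM or more in both. SERPINB2, an inhibitor of plasminogen activators that shares exons with another gene, was at 66.8 and 63.6 FPKM, SPARC, a matrix protein and line marker, at 37.8 and 31.5, and SIGLEC15, a sialic acid receptor, at 18.7 and 12.3. CPVL, a carboxypeptidase, was at 12.2 and 20.1, and FOXA2, a transcription factor of endoderm that shares exons with another gene, at 11.2 and 23.8. Listed in the B libraries and in neither A library were 502 genes, 7 of them at 10 FPKM or more in both. These genes were chosen after their values were seen.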
